A study of Rattus norvegicus with 6 samples.

Results

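Kinetochore, condensin and spindle checkpoint genes were read in the Achilles tendons of newborn and young adult rats. The group was a given list of 48 genes, and a member was the row of the array whose annotation named that gene and no other. All 48 genes were found among the 22093 genes that could be named in this way. Tendons came from the left hindlimb of male Sprague Dawley rats, at 1 day after birth (P 1d, n = 3) or at 6-8 weeks (P 6-8w, n = 3). The skin is described as removed, although some markers of epidermis were bright on P 1d replicates 1 and 3. The labels call each array a biological replicate from a tendon taken individually, and they name no treatment or transgene, so that age alone sets the groups apart there. RNA was labelled and hybridised to Affymetrix Rat Transcriptome Arrays, on which short probes report a transcript as brightness, and each value is a log2 RMA signal.

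A cell that divides packs its chromosomes with condensin, a ring of paired ATPase arms and regulatory subunits that folds DNA into loops. On the centromere of each chromosome it builds a kinetochore, in which CENP proteins sit on the DNA, the NDC80 and MIS12 complexes reach to the microtubule, and SKA proteins hold the grip. The spindle checkpoint senses kinetochores that are not attached and holds back the anaphase-promoting complex (APC/C), the ubiquitin ligase that lets sister chromatids part. Most of these genes are transcribed around G2 and mitosis in dividing cells, and in tendon such cells are abundant around birth and scarce in the adult.

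The median over all 68842 rows ran from 3.93 to 3.98 in newborn rats and from 4.43 to 4.54 in older rats, while genes with a signal of at least 8 numbered 2783 to 2873 at P 1d against 968 to 1607 at P 6-8w. The brightest rows shared a ceiling of 19.56 to 19.79. The genes of type I collagen, Col1a1 and Col1a2, reached it on every array, and Tnmd, a tendon membrane protein, gave 9.36 to 14.91. The tendon transcription factors Scx and Mkx, by contrast, lay at 4.44 to 4.55 and 4.72 to 5.08 on all arrays, close to the array medians, so the label of the tissue rests here on its matrix genes. Each difference is the mean log2 signal at P 6-8w less that at P 1d. What brought signals up to such a ceiling is not told by these sources, so the size of a difference may depend on it.

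Most of the members gave lower signals in the older tendon as deposited. Of 48 members, 30 were called lower and 0 higher at P 6-8w by limma, with limits of 0.05 on the adjusted p (Benjamini-Hochberg) and of 1 on the size of the log2 difference, although centring the arrays on their bright genes left 3 lower and 13 higher. Among all genes 16.8% were called lower and 2.46% higher, or 2.68% and 78.2% with that centring. The median difference of the members was -1.67, against 0.04 over all genes. Centring on bright genes, which adds the same amount to the difference of every gene, moved these medians to 0.12 and 1.83. Every P 6-8w array was below every P 1d array in 43 members, as in 34.1% of all genes, and 46 members had a difference below 0. Adjusted p-values of the called members ran from 5.23e-05 to 0.0035. Without the limit on size 41 members were called lower, against 30.6% of all genes, 11 of them with a difference of at most 1. The median of the members was 6.74, 6.82 and 6.81 in the newborn rats and 5.13, 5.31 and 5.22 in the older rats. These medians thus did not overlap between the ages, and those of each age lay within a narrow band. For a gene taken alone, the smallest p of an exact permutation test (two-sided) over 3 and 3 rats is 0.1, so the p-values printed are limma's, which weigh each gene's own spread with that over all genes. In a bulk tissue, fewer dividing cells and less RNA per cell cannot be told apart.

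**Figure D1:**
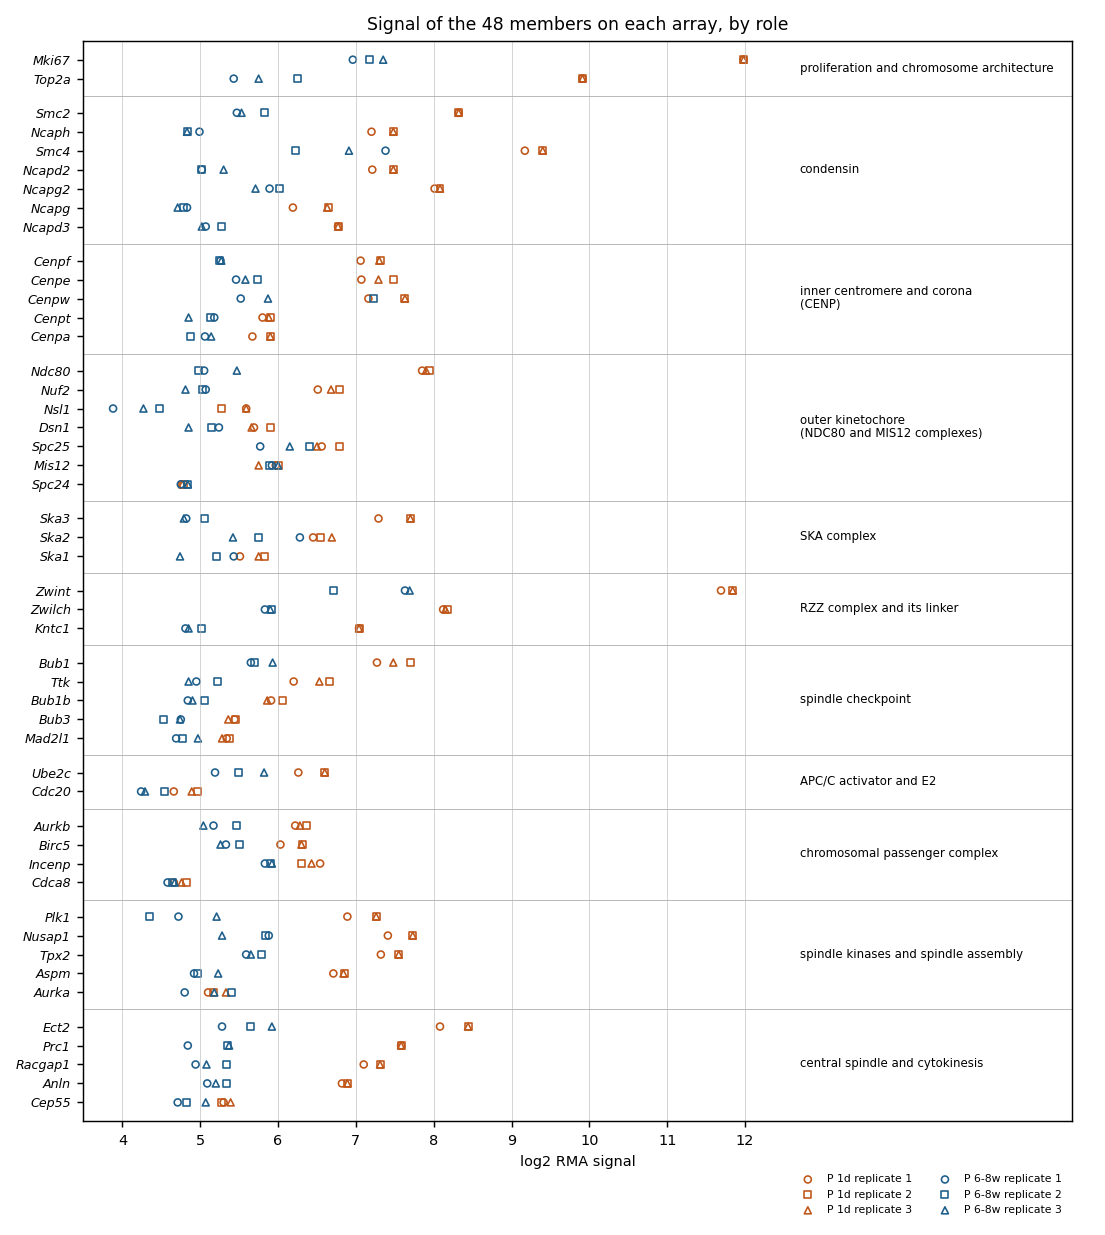
The log2 RMA signal of each of the 48 members (x axis) on each of the 6 arrays, by role, with P 1d arrays in orange and P 6-8w arrays in blue and a marker shape per replicate. Condensin, Zwint, Mki67 and Top2a show wide gaps between the ages, while Spc24, Mis12, Aurka, Cdca8 and Cenpw overlap. The values are as deposited (centring on bright genes lifts the P 6-8w points).

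Bright genes of any kind were often called lower, from 0.233% of all genes with a mean under 5 over the 6 arrays to 67.8% of those with a mean of 7 or more. Of the 24 members with a mean of at least 6 only 5 also had a P 6-8w mean of at least 6, so most stood among the bright genes through their P 1d signal, and members were not compared with all genes within a class of brightness. With the limit on size inside the test (limma treat) 26 members were lower, against 6.51% of all genes. After quantile normalization, which gives every array the same distribution, 25 members were lower, against 4.49% of all genes, and the median was -1.05. With centring on reference genes 18 members were lower, against 6.5% of all genes. In that setting 0 members and 10794 of all 22093 genes were called higher. Of the 10 reference genes 4 were themselves called lower as deposited and 0 higher, against 16.8% and 2.46% of all genes. Their differences ran from -2.87 to 0.91, so this centring is not a neutral one.

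**Figure D2:**
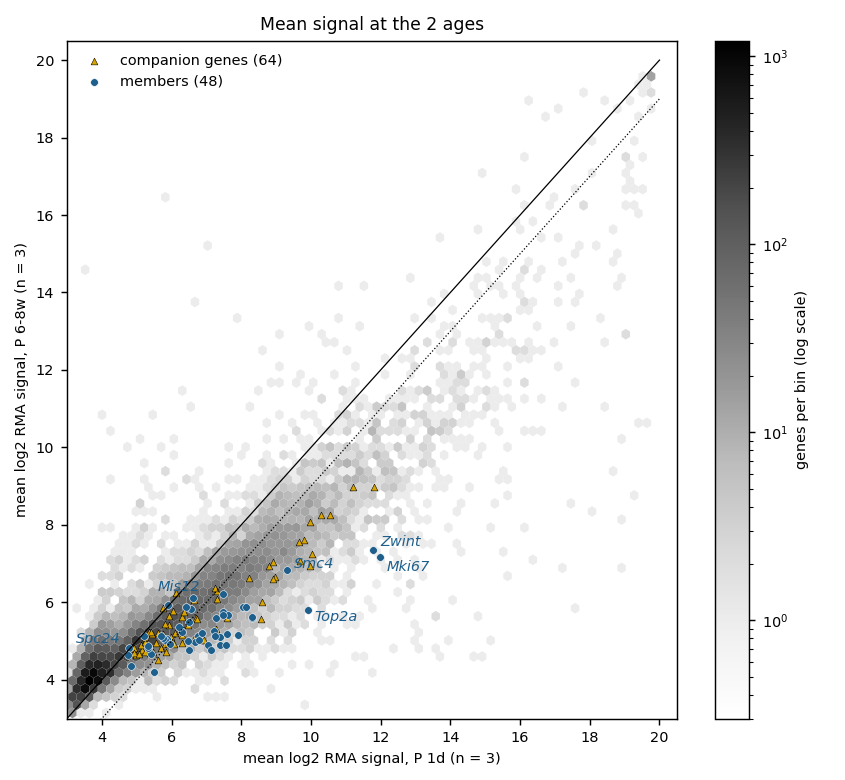
Mean log2 RMA signal at P 1d (x axis) against P 6-8w (y axis), each over 3 arrays as deposited, with all 22093 genes as grey bins, the 48 members as blue points and 64 companion genes as yellow triangles. The solid line marks equal means and the dotted line a difference of -1, and Mki67, Zwint and Top2a lie far below the dotted line, which they do also when arrays are centred on bright genes.

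The letters in front of these genes were set beside the values, because many mitotic genes carry a CHR element, often with a CCAAT box upstream, which in other mammals bind the MuvB complexes and NF-Y. RefSeq promoter windows (GRCr8, 250 bases before to 50 after a start) were available for 40 of the 48 members, in 41 windows, since Mis12 has 2. Cenpt, Zwint, Zwilch, Ube2c, Aurkb, Incenp, Tpx2 and Racgap1 had no entry. Motifs were searched on both strands. The letters taken for a CHR were TTTGAA, and the form TTCGAA was also allowed. Those for the box that NF-Y binds were CCAAT. An E2F site was taken as TTTCCCGC or TTTCGCGC, and in forms with a G at the fourth base as TTTGCCGC or TTTGGCGC. A CHR was found in 29 of 41 member windows (70.7%), against 19.7% of all 33469 windows. A CCAAT box was found in 61.0%, against 37.5%, and both motifs in 51.2%, against 7.95%. At least 2 CCAAT boxes were found in 43.9%, against 11.2%. None of the 41 windows held the E2F letters. As only 2.14% of all windows held them, so few windows cannot show a lack. The windows of members were richer in G and C, with a median of 58.0% against 51.7%. A match is a description of letters and not a bound site.

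Position also differed. Of 36 CHR matches in the member windows 19 (52.8%) lay between 50 bases before and 49 after the start, against 25.6% of 7688 matches over all windows. A CHR was present in 18 of 25 called genes with a window and in 11 of 15 that were not called. Among the companion genes described further on it was present in 29 of 57.

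**Figure D3:**
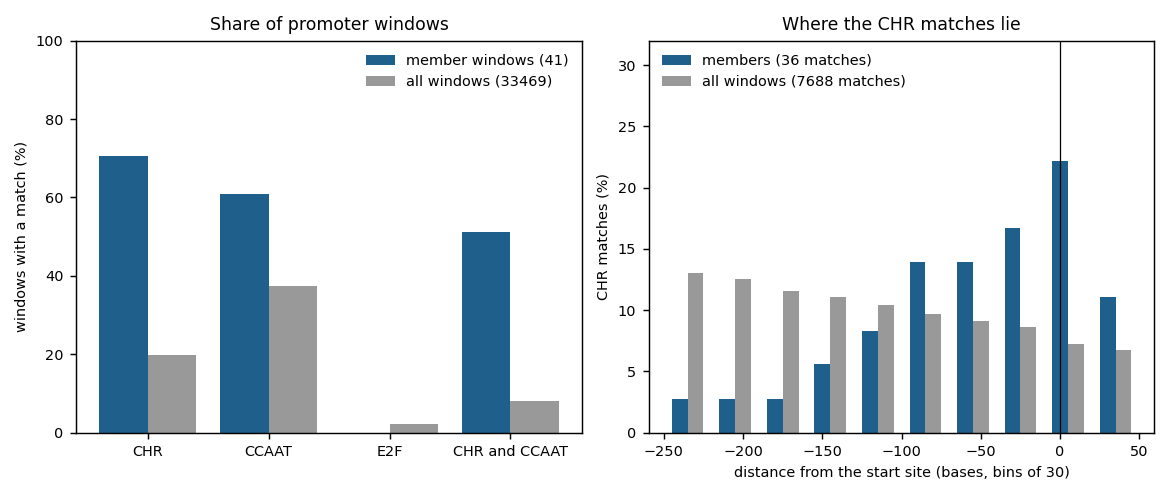
Left, the share of promoter windows (y axis, percent) that hold each motif, for 41 member windows in blue and all 33469 windows in grey. Right, the share of CHR matches (y axis, percent) by distance from the start site in bins of 30 bases (x axis), for 36 matches of members and 7688 of all windows. The member matches gather near the start, with 22.2% in the bin from -10 to 19, where all windows have 7.25%.

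The promoters chosen for print are those of members with the lowest differences that have an entry, namely Mki67 (chr1:199952564-199952843, minus strand), Top2a (chr10:84473064-84473343, minus strand), Smc2 (chr5:71602155-71602434, plus strand) and Ect2 (chr2:111966597-111966876, minus strand), and of Smc4 (chr2:155550012-155550291, plus strand), a bright member with a smaller difference. Mis12 (chr10:56238067-56238346, plus strand) is shown as a member whose ages overlapped and was chosen after its values were seen. Each runs 5′ to 3′ on the gene's strand over 250 bases before and 30 after the start, with the CHR and CCAAT letters of either strand in capitals, so that ATTGG is a CCAAT box and TTCAAA a CHR on the other strand. Ndc80, also among the lowest, is not printed, because its sole match lies 34 bases after the start.
Mki67: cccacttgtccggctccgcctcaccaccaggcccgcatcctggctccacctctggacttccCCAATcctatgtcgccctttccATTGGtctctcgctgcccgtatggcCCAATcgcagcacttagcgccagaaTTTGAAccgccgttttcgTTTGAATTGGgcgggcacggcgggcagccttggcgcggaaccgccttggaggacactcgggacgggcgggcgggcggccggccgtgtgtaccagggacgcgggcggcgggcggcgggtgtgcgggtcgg
Top2a: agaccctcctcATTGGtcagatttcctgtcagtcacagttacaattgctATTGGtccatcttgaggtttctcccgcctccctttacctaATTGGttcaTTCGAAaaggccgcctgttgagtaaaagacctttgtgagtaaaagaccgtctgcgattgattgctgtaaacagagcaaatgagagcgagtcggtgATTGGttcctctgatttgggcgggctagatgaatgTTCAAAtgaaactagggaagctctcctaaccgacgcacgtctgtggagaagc
Smc2: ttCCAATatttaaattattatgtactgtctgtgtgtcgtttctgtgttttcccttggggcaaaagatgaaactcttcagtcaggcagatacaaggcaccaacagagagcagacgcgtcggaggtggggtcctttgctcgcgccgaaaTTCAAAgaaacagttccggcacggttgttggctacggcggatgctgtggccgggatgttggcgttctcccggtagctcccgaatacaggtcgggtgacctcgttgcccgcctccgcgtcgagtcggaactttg
Ect2: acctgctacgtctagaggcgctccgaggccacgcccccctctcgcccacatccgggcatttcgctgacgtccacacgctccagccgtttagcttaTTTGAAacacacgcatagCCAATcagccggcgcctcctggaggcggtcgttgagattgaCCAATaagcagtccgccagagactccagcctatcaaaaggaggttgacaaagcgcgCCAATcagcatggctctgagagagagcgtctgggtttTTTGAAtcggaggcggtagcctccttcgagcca
Smc4: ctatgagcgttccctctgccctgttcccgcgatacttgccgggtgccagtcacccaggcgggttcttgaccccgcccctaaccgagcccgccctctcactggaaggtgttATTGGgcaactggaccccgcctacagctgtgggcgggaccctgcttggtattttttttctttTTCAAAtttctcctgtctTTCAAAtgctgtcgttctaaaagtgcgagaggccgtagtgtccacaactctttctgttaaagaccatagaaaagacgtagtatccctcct
Mis12: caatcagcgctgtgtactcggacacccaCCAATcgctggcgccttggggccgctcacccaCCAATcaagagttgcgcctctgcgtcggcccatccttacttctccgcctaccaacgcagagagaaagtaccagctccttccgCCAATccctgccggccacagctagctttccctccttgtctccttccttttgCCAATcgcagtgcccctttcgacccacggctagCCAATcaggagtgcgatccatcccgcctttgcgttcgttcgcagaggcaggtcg

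Mki67 held 4 CCAAT boxes and 2 CHR matches, and the CHR at -99 shares bases with the ATTGG at -94. Top2a held 4 CCAAT boxes, with 1 CHR at -152 and 1 at -22. Ect2 held 3 CCAAT boxes in 1 orientation and a CHR across the start, at -3. Smc4 held 2 CHR matches, at -78 and -60, and Smc2 held 1, at -103. In the window of Mis12 that is printed there were 5 CCAAT boxes, all in 1 orientation, and 0 CHR matches, while its other window held a CHR at -200.

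Both genes of proliferation and chromosome architecture fell with age under each scaling tried, with medians from -4.59 to -2.67. Over all genes the median was 1.83 with centring on bright genes and 0.99 on reference genes, and the medians of every role below stand beside these. Mki67 encodes Ki-67, the coat of mitotic chromosomes that is widely used to mark dividing cells. Its signal was 11.98 on each of the 3 P 1d arrays against 6.96, 7.18 and 7.35 in the older rats. The ages were far apart, and the difference of -4.82 ± 0.11 (SE, n = 3 per age) was the lowest of the members (limma, adjusted p = 5.23e-05). Top2a, the topoisomerase that untangles sister DNAs, gave 9.91 on all P 1d arrays against 5.43, 6.25 and 5.75 in the older rats, a difference of -4.10 ± 0.21 (limma, adjusted p = 0.00021). Equal values on all 3 P 1d arrays were seen in 6 members and in 16.6% of all genes. On all 3 P 6-8w arrays they were seen in 0 members and 1.71% of genes. The sources used here do not say what made them equal. The 6 members were Mki67, Top2a, Smc2, Ncapd3, Kntc1 and Prc1. Their SEs, intervals and p-values rest on the older arrays and on the spread over all genes, which includes tied genes. They therefore cannot measure how newborn rats differ from each other. In 21 members, these 6 among them, P 1d replicates 2 and 3 were equal, against 25% of all genes. The newborn spread of the others among the 21 thus rests on fewer distinct values, and how far this lowered their SEs was not tested. How far ties lowered the spread over all genes was not tested.

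All 7 condensin genes fell, with differences from -2.71 to -1.65 and a median of -2.28, which became -1.41 after quantile normalization and -0.49, with 0 of 7 called, when arrays were centred on bright genes. The list spans the shared ATPases Smc2 and Smc4, the condensin I subunits Ncapd2, Ncapg and Ncaph, and the condensin II subunits Ncapd3 and Ncapg2. Smc2 gave 8.32 on all 3 P 1d arrays against 5.47, 5.82 and 5.53 in the older rats (-2.71 ± 0.10, limma, adjusted p = 0.000127). Its partner Smc4 gave 9.17, 9.40 and 9.40 against 7.38, 6.23 and 6.91. The older rats differed more among themselves in Smc4 than in Smc2, and its difference was -2.48 ± 0.30. Ncaph, the kleisin that closes the condensin I ring, differed by -2.50, Ncapd2 by -2.28 and Ncapg by -1.71. Of condensin II, Ncapg2 differed by -2.18. Ncapd3 had the smallest change of the list, with 6.77 on all P 1d arrays against 5.07, 5.27 and 5.02 (-1.65 ± 0.08, limma, adjusted p = 0.000187). Subunits of both complexes were therefore lower, and no test compared condensin I with condensin II.

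Of the 5 CENP members 2 fell (1 after quantile normalization or with centring on reference genes), the corona proteins Cenpf and Cenpe, and the list's median of -1.27 turned to 0.52 when arrays were centred on bright genes. Cenpf, a large protein of the outer corona, gave 7.06, 7.32 and 7.30 at P 1d against 5.26, 5.25 and 5.27 at P 6-8w (-1.97 ± 0.09, limma, adjusted p = 0.000155). Cenpe, the kinesin that moves chromosomes to the spindle equator, differed by -1.69. Cenpa, the histone variant that defines the centromere, had a smaller difference and did not pass the limit on size. Its signals were 5.67, 5.90 and 5.90 against 5.06, 4.87 and 5.14, which do not overlap, with a difference of -0.80 and a 95% interval of -1.07 to -0.53. Cenpt, which links centromere chromatin to NDC80, had -0.81. Cenpw, its histone-fold partner, gave 7.16, 7.63 and 7.63 at P 1d but 5.52, 7.22 and 5.87 at P 6-8w. P 6-8w replicate 2 overlapped the newborns, the adjusted p was 0.0658, and without that array the difference was -1.78 with an adjusted p of 0.00491 (limma).

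The outer kinetochore was split. In the NDC80 complex, the microtubule-binding rod, Ndc80 and Nuf2 fell while Spc24 and Spc25 were not called. Ndc80 gave 7.85, 7.95 and 7.90 at P 1d against 5.05, 4.98 and 5.47 at P 6-8w (-2.73 ± 0.14, limma, adjusted p = 0.000212), and Nuf2 differed by -1.69. Spc24, from the inner end of the rod, gave 4.76, 4.78 and 4.77 against 4.75, 4.84 and 4.84. These ages overlap, at a brightness near that of most genes on the array, and the difference of 0.04 had a 95% interval of -0.10 to 0.18. Spc25 had -0.51 (limma, adjusted p = 0.0594). In the MIS12 complex, which ties NDC80 to the centromere, Nsl1 fell from 5.59, 5.27 and 5.59 to 3.88, 4.48 and 4.27 (-1.27 ± 0.18, limma, adjusted p = 0.0035), but was not called with limma treat (adjusted p = 0.682). Dsn1 had -0.67 and was not called. Mis12 gave 5.97, 6.00 and 5.75 against 5.92, 5.89 and 6.00, overlapping throughout, with a difference of 0.03 and an interval of -0.19 to 0.25. Across the 7 genes the median was -0.67 and 3 were called lower, against 0.04 and 16.8% over all genes. Centring on bright genes gave a median of 1.12 with 4 called higher, against 1.83 and 78.2% over all genes. With centring on reference genes the median was 0.27, against 0.99 over all genes.

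Of the 3 SKA genes, whose products keep kinetochores on shrinking microtubules, Ska3 alone was called, and the median of -0.74 became 1.05 with centring on bright genes and 0.20 with centring on reference genes. Ska3 gave 7.29, 7.70 and 7.70 at P 1d against 4.82, 5.06 and 4.79 at P 6-8w, a difference of -2.67 ± 0.15 (limma, adjusted p = 0.000235). Ska1 gave 5.51, 5.82 and 5.75 against 5.43, 5.21 and 4.74. Its lowest newborn array lay just above its highest older array, and the difference of -0.57 had an adjusted p of 0.0571. Ska2 had -0.74 with an adjusted p of 0.0389, within the limit on size.

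The RZZ complex and its linker fell in all 3 measured members as deposited, with a median of -2.27, and a median below 0 under each other scaling too (-0.48 with centring on bright genes, where 1 of 3 was called). This complex brings dynein and the checkpoint protein MAD1 to kinetochores that are not attached. Zwint, which anchors it to the outer kinetochore, gave 11.69, 11.84 and 11.84 at P 1d against 7.63, 6.71 and 7.69 at P 6-8w. The ages were far apart, with a difference of -4.45 ± 0.28 (limma, adjusted p = 0.000338). Zwilch differed by -2.27. Kntc1, which encodes the ROD subunit, gave 7.04 on all P 1d arrays against 4.81, 5.02 and 4.85 in the older rats (-2.15 ± 0.07, limma, adjusted p = 0.000109).

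Among the 5 spindle checkpoint genes the 3 kinases or kinase-like genes fell, and the 2 others did not pass the limit on size, with a median of -1.01 that became 0.78 with centring on bright genes. Of the 5, 1 was called after quantile normalization and 0 with centring on reference genes, and Ttk and Bub1b were not called with limma treat (adjusted p = 0.157 and 1.0). Bub1, the kinase that marks centromeric chromatin, gave 7.27, 7.70 and 7.48 at P 1d against 5.65, 5.70 and 5.93 (-1.72 ± 0.14, limma, adjusted p = 0.000624). Ttk, the MPS1 kinase that starts checkpoint signalling, differed by -1.46. Bub1b, which encodes BUBR1, lay near the limit at -1.01, and was no longer called without P 1d replicate 2, P 6-8w replicate 1 or P 6-8w replicate 3, where it was -0.95, -0.96 and -0.99. Mad2l1, the gene of the MAD2 protein that binds CDC20, gave 5.34, 5.37 and 5.28 against 4.69, 4.77 and 4.97. The ages did not overlap, and the difference of -0.52 had a 95% interval of -0.74 to -0.30. Bub3 had -0.74 with an adjusted p of 0.00153 (limma). The target of the checkpoint, the APC/C activator Cdc20, gave 4.66, 4.96 and 4.89 against 4.24, 4.54 and 4.29, a difference of -0.48 with an interval of -0.78 to -0.18. Ube2c, the E2 enzyme that works with the APC/C, stood at -0.99, just short of the limit, and was called without P 1d replicate 1 (-1.10) or P 6-8w replicate 3 (-1.15). Neither was called with all 6 arrays, and centring on bright genes gave this pair a median of 1.06.

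In the chromosomal passenger complex, which corrects faulty attachments, 1 of 4 genes was called, and the median of -0.70 became 1.09 with centring on bright genes and 0.25 with centring on reference genes. Aurkb, its kinase, gave 6.22, 6.37 and 6.28 at P 1d against 5.17, 5.46 and 5.04 at P 6-8w (-1.07 ± 0.12, limma, adjusted p = 0.00176), and lost the call at -0.97 without P 6-8w replicate 3. None of the 4 was called after quantile normalization or with centring on reference genes, nor was Aurkb with limma treat (adjusted p = 1.0). Birc5, which encodes survivin, had -0.85, and the scaffold Incenp had -0.54. Cdca8, the gene of borealin, gave 4.66, 4.82 and 4.76 against 4.58, 4.64 and 4.67. These overlap at a low signal, with a difference of -0.12 and an interval of -0.28 to 0.05.

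Of the 5 spindle kinases and assembly factors 4 fell, with a median of -1.80 that became -0.01 with centring on bright genes. Plk1, the polo-like kinase of mitotic entry, gave 6.89, 7.26 and 7.26 at P 1d against 4.72, 4.35 and 5.21 (-2.38 ± 0.24, limma, adjusted p = 0.00126). Nusap1, a microtubule bundler, differed by -1.96, Tpx2, which activates Aurora A, by -1.80, and Aspm, of the spindle poles, by -1.76. Aurora A itself was not called. Aurka gave 5.10, 5.17 and 5.33 against 4.80, 5.40 and 5.18, overlapping, with a difference of -0.07 and an interval of -0.49 to 0.35. Without P 6-8w replicate 1 it was 0.09.

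Of the 5 central spindle and cytokinesis genes 4 fell, with a median of -2.12 that became -0.33 with centring on bright genes. Ect2, the exchange factor that switches on RhoA at the cleavage furrow, gave 8.08, 8.44 and 8.44 at P 1d against 5.28, 5.65 and 5.92 at P 6-8w (-2.70 ± 0.20, limma, adjusted p = 0.000482). Its partner Racgap1 differed by -2.12 on the brighter of its 2 rows and by -1.56 on the other, with both called lower. Prc1, which bundles the antiparallel microtubules of the midzone, differed by -2.39, and Anln, the furrow scaffold anillin, by -1.66. Cep55, which recruits the abscission machinery, gave 5.30, 5.27 and 5.39 against 4.71, 4.82 and 5.07. The ages did not overlap, and the difference of -0.45 had an interval of -0.72 to -0.18.

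**Figure D4:**
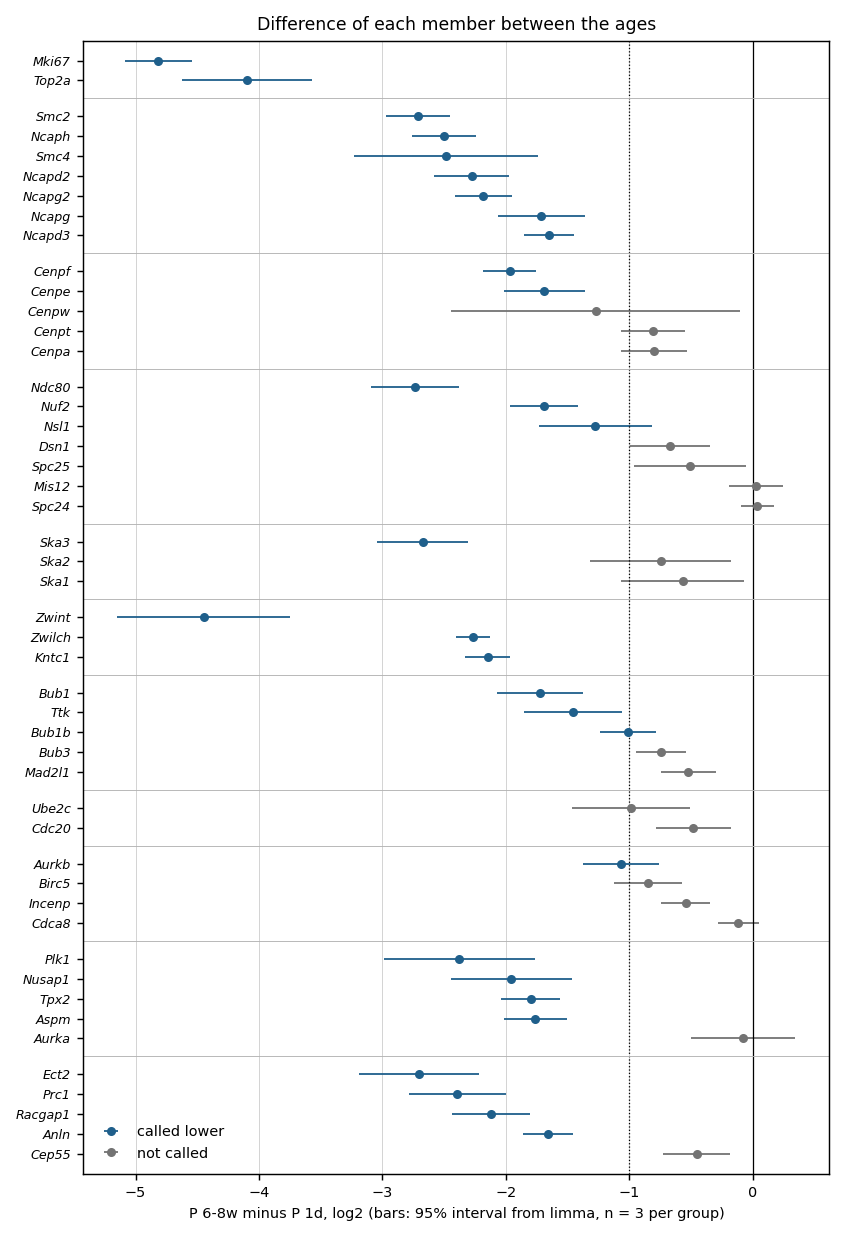
Log2 difference between P 6-8w and P 1d (x axis, below 0 where lower at P 6-8w) for each of the 48 members by role, as the limma estimate with its 95% interval (bars, n = 3 per age), blue where called lower and grey where not called. For members with equal values on all P 1d arrays the bars hold no spread among newborn rats of their own. For others with P 1d replicates 2 and 3 equal the newborn spread rests on fewer distinct values. The dotted line marks a difference of -1, and Mki67, Zwint and Top2a lie beyond -4, the 3 members that stayed called when arrays were centred on bright genes.

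The members spanned a wider range of signals at P 1d than at P 6-8w, as a description of different probes. Their P 1d means ran from 4.75 to 11.98 with an interquartile width of 1.61, while their P 6-8w means ran from 4.21 to 7.34 with a width of 0.77, and 41 of the 48 lay between 4.5 and 6. At P 1d, replicate 1 was the lowest of the 3 arrays in 33 members, replicate 2 in 3 and replicate 3 in 6, with the 6 others tied on all 3. Replicates 2 and 3 had the same value in 21 members, against 25% of all genes. At P 6-8w, replicate 1 was lowest in 26 members, replicate 2 in 8 and replicate 3 in 14, while of all genes replicate 1 was lowest in 33.3%, replicate 2 in 38.0% and replicate 3 in 28.7%. No test was made of these orders.

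The wider machinery was read from 69 companion genes, of which 64 were measured by name. Of these 32 were lower and 0 higher, against 16.8% and 2.46% of all genes, with a median of -0.95. Centring on bright genes left 3 lower, against 2.68% of all genes, and turned others higher, as given by line below. Of companions with a mean of 7 or more over the 6 arrays 17 of 17 were lower, against 67.8% of all such genes. From 6 to 7 it was 6 of 10, against 39.2%, and from 5 to 6 it was 9 of 31, against 9.83%. With a mean under 5 it was 0 of 6, against 0.233%. This mean includes the P 1d signals that are compared, so these shares give no comparison within a class of brightness. In the network that sits on centromere chromatin and loads CENP-A 5 of 17 were lower, among them Cenpi (-1.35) and Cenpc (-1.22), and the median was -0.53, or 1.26 with centring on bright genes. Among other kinetochore and checkpoint genes 2 of 7 were lower, Zw10, the third RZZ subunit, at -2.99 and the MIS12 complex gene Pmf1 at -1.15. Ncaph2, the kleisin of condensin II, was lower at -1.10. Cohesin and its regulators, which hold sisters together, had 10 of 15 lower, with Rad21 at -2.76 and the loader Nipbl at -2.29. Of the APC/C subunits and regulators 9 of 16 were lower, with Cdc27 at -3.04 and Anapc5 at -2.84. Of other spindle and cytokinesis genes 5 of 8 were lower, with Ckap5 at -2.61 and Ckap2 at -1.96. With centring on bright genes the medians were 1.20 for the other kinetochore genes, 0.69 for Ncaph2, -0.08 for cohesin, 0.68 for the APC/C and 0.44 for the other spindle genes. The median of all genes was 1.83 there. Called higher in that setting were 11 of 17 genes of the centromere network and 5 of 7 other kinetochore genes. So were 3 of 15 cohesin genes, 6 of 16 APC/C genes and 1 of 8 other spindle genes, against 78.2% of all genes. After quantile normalization 2 of 15 cohesin genes, 5 of 16 APC/C genes, 4 of 8 other spindle genes, 1 of 7 other kinetochore genes and 1 of 17 genes of the centromere network were lower, and Ncaph2 was not called. Of all genes 4.49% were lower in that setting. Of the 31 cohesin and APC/C genes P 6-8w replicate 1 was lowest in 5, replicate 2 in 16 and replicate 3 in 10, with no test.

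The 8 tendon markers had a summed signal of 20.76 to 20.82 at P 1d against 20.58 to 20.64 at P 6-8w, with 1 lower. That sum is set by Col1a1 and Col1a2 at the ceiling, while Tnc differed by -2.51 and was called, and Tnmd by -2.51 without a call. Markers of other cells also differed with age in the signals as deposited. The summed signal of 10 skeletal muscle markers was 21.79 to 21.92 at P 1d against 18.33 to 20.32 at P 6-8w, with 6 lower and 1 higher, and none of them was under 5 on every array. The myosin genes went opposite ways, with Myh3 at -10.55 and Myh8 at -8.94 but Myh4 at 8.31 and Myh2, not called, at 2.04. Ckm, Tnnt3, Ttn and Neb differed by -4.38 to -2.96, while Acta1 (-0.92) and Myl11 (-0.61) were not called. The sum is therefore no measure of the amount of muscle. The sum of 5 endothelial markers was 13.86 to 14.03 against 12.32 to 13.06, with 2 lower. These were Cdh5 (-1.89) and Kdr (-2.84), while Tie1 (-0.64), Pecam1 (0.08) and Tek (0.77) were not called. Adipocyte markers went the other way, at 6.18 to 6.61 against 8.45 to 11.58, with 3 of 5 higher, and those of cartilage stood at 8.18 to 8.66 against 9.93 to 12.09. In that sum only Comp, also a gene of tendon matrix, was higher (by 5.37), and the 6 other cartilage markers differed by -0.16 to 0.33 with no call. For leukocytes it was 7.96 to 9.07 against 8.05 to 8.37, with 1 of 8 lower and 1 higher. Erythroid markers gave 19.74 to 19.79 against 19.56 to 19.59, set by Hba-a1 at the ceiling, with 0 of 7 called. The part of these cells in the difference of the members was not tested. Epidermis markers were bright on P 1d replicates 1 and 3, with summed signals of 18.10 and 19.32, and dim on P 1d replicate 2, at 7.41, and on the P 6-8w arrays, at 7.80 to 8.02, with 0 of 9 called. Krt1 gave 17.94, 4.25 and 18.86 on the P 1d arrays, while Krt15, Loricrin and Sfn gave 4.0 to 5.6 there. Replicates 1 and 3 at P 1d thus carried epidermal signal although the skin is described as removed. The median of the members was 6.82 on P 1d replicate 2, against 6.74 and 6.81 on the other newborn arrays. Set alone against the 3 older arrays, that array gave 22 members lower and 0 higher, with a median of -1.75, against 4.95% of all genes lower, in a fit where 1 array stands for its age.

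**Figure D5:**
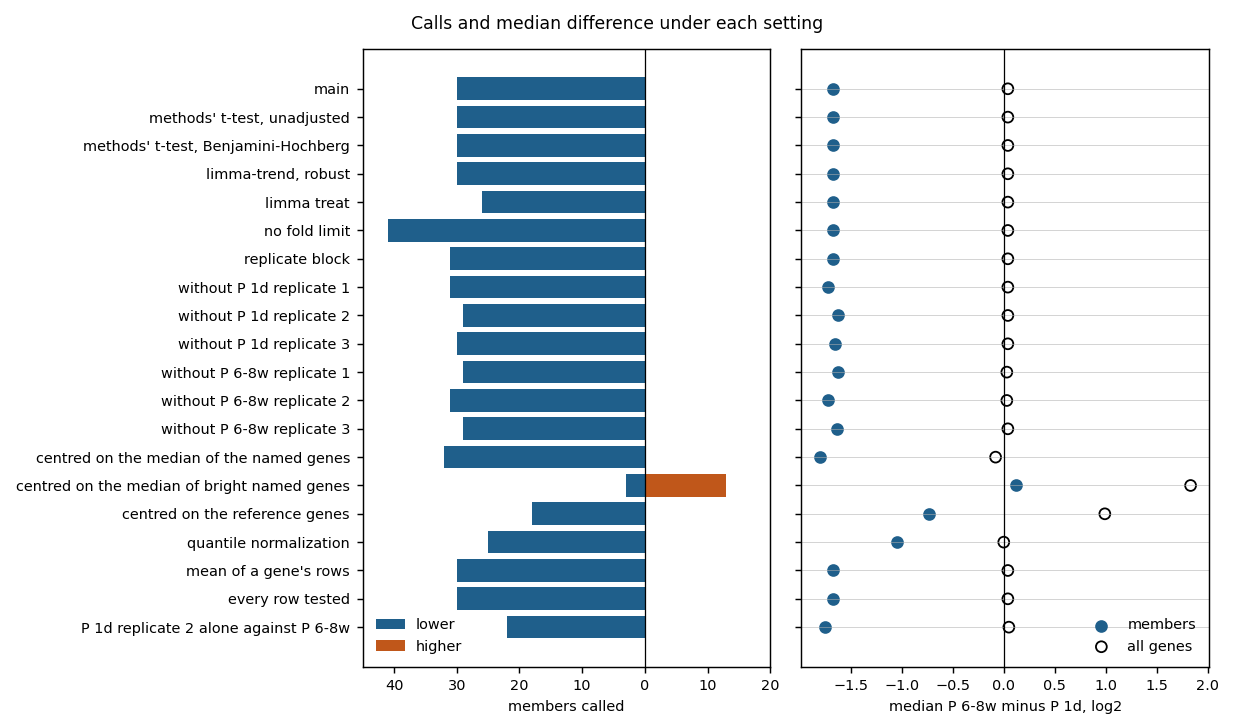
For each setting that kept all 48 members, the number of members called lower (bars to the left) and higher (bars to the right) at P 6-8w on the left, and the median difference on the log2 scale of the members (filled) and of all genes (open) on the right. Centring on bright genes moves both medians up, to 0.12 and 1.83, and leaves 3 members lower and 13 higher, against 30 and 0 as deposited.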

How the data were processed

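RNA of Achilles tendons was profiled on 6 arrays. The authors processed the arrays by RMA at default settings with global scaling and deposited log2 signals. Of 68842 rows, 23446 had 1 gene symbol in the platform annotation, updated by Entrez ID (20907 of 21031 found), 505 had several and 44891 had none. For the 1182 genes with several rows the row of highest mean was used. No source used here gives the annotation's genome build. Depth does not apply, and the number of arrays limits the precision.

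P 6-8w was compared with P 1d in limma 3.58.1 (lmFit and eBayes, R 4.3.3) over 22093 genes, without covariates. The step was tested on simulated data drawn with equal spread at both ages and without tied values. The arrays differ from that, so the simulation does not vouch for the calls made here. The methods state an unadjusted t-test with a fold change limit of 2, tried beside it. The members and lists were chosen with earlier results of these data known. Values on every array are given for the lowest called member and the member of smallest absolute difference of each role. Of the companions the 2 lowest called of each line, where there were as many, are named with their difference only. Smc4, Cenpw and Spc24, whose values on every array are also given, and the Mis12 promoter were chosen after their values were seen, as were Nsl1 and its values. Alternatives were other tests, a replicate block, leaving out each array, centring on named, bright (mean of at least 8) or 10 reference genes, quantile normalization, leaving out dim genes (mean under 6) and other uses of rows. P 1d replicate 2 alone was added after seeing the data.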

Additional observations from a re-analysis of the deposited data

How the results depend on the processing

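With 3 arrays per age and no detection calls, low signals limit what can be read, and 24 of the 48 members have a mean under 6. Leaving out each array in turn gave 29 to 31 members lower and medians of -1.72 to -1.62. Mis12 then ranged from -0.05 to 0.08 and Aurka from -0.21 to 0.09, neither called. The t-test of the methods with and without adjustment, limma-trend, the mean of a gene's rows and the test of every row each gave 30 members lower. The medians of the members were -1.80 with centring on named genes, 0.12 on bright genes, -0.73 on reference genes, -1.05 after quantile normalization, -2.23 without dim genes (24 members, most of them kept through their P 1d signal) and -1.75 with P 1d replicate 2 alone, where the spread of the older arrays stands for both ages. Members called lower numbered 3 with centring on bright genes, where 13 were higher, and 18 on reference genes. Companion genes lower, 32 of 64 as deposited against 16.8% of all genes, numbered 16 with limma treat (6.51% of all genes), 53 without the limit on size (30.6%), 3 with centring on bright genes (2.68%), 15 on reference genes (6.5%), 13 after quantile normalization (4.49%) and 5 with P 1d replicate 2 alone (4.95%). Among all genes called, 87.2% were lower as deposited, 92.6% with centring on named genes, 3.32% on bright genes, 11.7% on reference genes and 52.6% after quantile normalization. The median of all genes moved from 0.04 to 1.83 with bright genes and 0.99 with reference genes.

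Centring adds the same amount to the difference of every gene, so that the signs it turned follow from that amount and are not particular to a gene. With centring on bright genes the log2 differences that turned were Ncapd3 0.14, Ncapg 0.08, Cenpa 0.99, Cenpt 0.98, Cenpw 0.52, Cenpe 0.1, Nuf2 0.1, Spc25 1.28, Dsn1 1.12, Nsl1 0.52, Ska1 1.22, Ska2 1.05, Bub1 0.07, Bub1b 0.78, Bub3 1.05, Mad2l1 1.27, Ttk 0.33, Cdc20 1.31, Ube2c 0.8, Aurkb 0.72, Birc5 0.94, Incenp 1.25, Cdca8 1.67, Aurka 1.72, Aspm 0.03, Anln 0.13 and Cep55 1.34. With centring on reference genes they were Cenpa 0.14, Cenpt 0.14, Spc25 0.43, Dsn1 0.27, Ska1 0.38, Ska2 0.2, Bub3 0.2, Mad2l1 0.42, Cdc20 0.46, Birc5 0.09, Incenp 0.4, Cdca8 0.83, Aurka 0.87 and Cep55 0.49. After quantile normalization they were Spc24 -0.03, Spc25 0.38, Incenp 0.19 and Aurka 0.15, with centring on named genes Spc24 -0.09 and Mis12 -0.1, and with P 1d replicate 2 alone Mis12 -0.06. For quantile normalization the cause was not tested.

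Replicate numbers in the labels did not pair the arrays, since deviations of same-numbered arrays correlated at 0.01, -0.11 and 0.05. With the replicate block 31 members were lower, Cenpw being the one added (limma, adjusted p = 0.0499), and 32 companion genes.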
